A study of Mus musculus with 20 samples.

Results

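The genes described here are 10 factors and products of the visceral endoderm, followed across 20 individually amplified inner cell mass cells of mouse blastocysts at embryonic day 3.5. The members were Hnf4a, Foxa2, Foxq1, Cubn, Amn, Dab2, Apoe, Apoa1, Ttr and Afp, and every probe set that the platform annotation gives to 1 of these symbols was taken, which made 28 probe sets for 10 of 18193 genes. All 20 cells came from C57BL/6 blastocysts, with no mutation or treatment in the labels. Per the series design, amplified cDNAs of 55 cells were screened by PCR, which left 50 with Oct4 and without Cdx2. Each array held the PCR-amplified cDNA of 1 cell. The labels form 1 group and tie no cell to an embryo, so no p-value was computed over cells, and spreads below are spreads between these cells, in which biological and amplification differences cannot be told apart. The number of a cell is its replicate number in the labels.

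The visceral endoderm is the absorptive and secretory layer that the primitive endoderm forms around the embryo after implantation. It is the first tissue of the embryo to make many of the plasma proteins later made by the liver, under transcription factors such as HNF4A and FOXA2. It takes up nutrients through the cubilin receptor, which is held in the membrane by amnionless and drawn into clathrin-coated pits by adaptors such as DAB2. Cells of the inner cell mass at this stage have not yet formed this layer, and the primitive endoderm that gives rise to it is still intermixed with the epiblast.

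The promoter windows below are shown because they belong to the 2 members found in most cells (Hnf4a and Cubn) and to 2 secreted products that were at or near background (Apoa1 and Afp). They come from RefSeq (build GRCm38.p6) and cover 250 bases before to 50 after an annotated start, read 5′ to 3′ on the strand given. Capitals mark AGATAA or TGATAA, the letters GATA factors favour, and TGTTTAC or TGTTTGC, the letters forkhead factors favour, each on either strand.
Hnf4a upstream window (chr2:163506607-163506906, plus strand): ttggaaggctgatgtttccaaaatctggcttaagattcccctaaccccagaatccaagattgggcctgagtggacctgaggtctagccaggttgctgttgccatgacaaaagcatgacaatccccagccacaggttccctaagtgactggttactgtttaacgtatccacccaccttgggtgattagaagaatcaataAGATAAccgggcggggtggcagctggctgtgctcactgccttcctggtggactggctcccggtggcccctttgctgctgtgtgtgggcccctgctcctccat
Hnf4a downstream window (chr2:163546905-163547204, plus strand): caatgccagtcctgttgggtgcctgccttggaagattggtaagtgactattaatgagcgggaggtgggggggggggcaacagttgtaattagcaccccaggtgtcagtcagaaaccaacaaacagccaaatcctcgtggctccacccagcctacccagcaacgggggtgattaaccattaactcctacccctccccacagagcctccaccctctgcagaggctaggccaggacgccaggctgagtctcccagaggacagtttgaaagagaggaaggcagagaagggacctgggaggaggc
Cubn window (chr2:13491827-13492126, minus strand): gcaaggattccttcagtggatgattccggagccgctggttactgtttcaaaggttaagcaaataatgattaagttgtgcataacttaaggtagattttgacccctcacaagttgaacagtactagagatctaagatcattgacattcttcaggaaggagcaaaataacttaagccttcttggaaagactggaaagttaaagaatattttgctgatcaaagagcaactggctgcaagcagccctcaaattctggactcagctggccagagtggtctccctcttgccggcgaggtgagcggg
Apoa1 window (chr9:46228380-46228679, plus strand): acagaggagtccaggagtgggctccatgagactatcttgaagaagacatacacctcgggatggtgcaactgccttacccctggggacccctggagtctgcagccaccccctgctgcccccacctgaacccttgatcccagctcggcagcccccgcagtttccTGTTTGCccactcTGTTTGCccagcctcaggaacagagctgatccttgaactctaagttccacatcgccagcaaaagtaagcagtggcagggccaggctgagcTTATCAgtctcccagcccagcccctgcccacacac
Afp window (chr5:90490464-90490763, plus strand): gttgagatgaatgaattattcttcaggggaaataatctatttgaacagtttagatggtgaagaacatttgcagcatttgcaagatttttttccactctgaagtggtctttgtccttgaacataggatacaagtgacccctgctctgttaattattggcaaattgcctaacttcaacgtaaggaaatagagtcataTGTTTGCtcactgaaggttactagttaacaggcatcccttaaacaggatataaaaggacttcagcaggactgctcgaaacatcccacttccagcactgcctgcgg

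RefSeq's table held 14 windows for 8 members, with Foxq1 and Ttr not in it. The GATA letters were in 4 of the 14 windows, 1 each of Hnf4a, Foxa2, Dab2 and Apoa1, against 18.6% of all 32851 windows of this length. In the upstream Hnf4a window they began 52 bases before the start. The forkhead letters were in 3 windows, 1 each of Apoe, Apoa1 and Afp, against 8.48% of all windows, and Apoa1 had them 2 times. The HNF4 letters CAAAGTCCA or CAAAGGTCA, found in 0.95% of all windows, and the HNF1 motif, found in 0.00913%, were in 0 of the 14. The Cubn window and the downstream Hnf4a window held none of these letters. A match is a description of the letters and no sign of binding.

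Values are log2(intensity + 8.48), on which the lowest possible value is 3.25. A probe set counted as above the floor in a cell when it exceeded the floor of that array, which lay between 6.77 and 7.38. This floor is the 95th percentile of 185 control probe sets, whose genes belong to other tissues or to the olfactory and vomeronasal receptors. The cells are set out in 2 classes by Fgf4, an epiblast ligand gene outside the members: 10 cells without Fgf4 above the floor (cells 3, 4, 5, 6, 8, 10, 11, 15, 17 and 20) and 10 cells with it (cells 1, 2, 7, 9, 12, 13, 14, 16, 18 and 19). The primitive endoderm factor gene Gata4 was above the floor in exactly the 10 Fgf4-negative cells, so the Gata4 split gives the same classes. Of 7 primitive endoderm markers, Sox7 was above the floor in 0 cells. Gata4 was kept among them, so part of the gap in their sum is built in. The summed signal over the floor of these 7 markers was 19.53 to 28.09 log2 units in Fgf4-negative cells and 0.41 to 9.35 in Fgf4-positive cells. That of 6 epiblast markers, with Fgf4 left out because it set the classes, was 1.73 to 20.61 in Fgf4-negative cells and 19.01 to 28.01 in Fgf4-positive cells, so these ranges overlapped slightly. The classes rest on the data and serve as a description. The median deposited intensity was 25.56 to 30.14 in 19 cells and 14.97 in cell 19, which stands apart. Pou5f1, the gene of Oct4, was above the floor in all 20 cells. Cdx2 was above it in 17, between 6.81 and 8.26 over the 20 cells and so near the floors, although the cells had been screened against it. Of the other 7 trophectoderm markers, Tfap2c was above the floor in 13 cells (5 Fgf4-negative and 8 Fgf4-positive), Eomes in 9 (6 Fgf4-negative and 3 Fgf4-positive), Krt8 in 9 (5 Fgf4-negative and 4 Fgf4-positive), Krt18 in 1, and Gata3, Elf5 and Krt7 in 0. The summed signal of all 8 was 0.02 to 5.99 in Fgf4-negative and 0.02 to 6.61 in Fgf4-positive cells.

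At this stage 2 members were on in many cells, 2 in some and 6 in 2 cells or fewer. By its brightest probe set Hnf4a was above the floor in 16 of 20 cells, Cubn in 11, Apoe in 9, Foxq1 in 6, Foxa2 in 2, Amn in 1, Apoa1 in 1, and Dab2, Ttr and Afp in 0. That is 7 of 10 members in at least 1 cell, where 60.6% of all genes were, and 2 of 10 in at least 10 cells, where 38.5% of all genes were. The count of members seen at all was thus near that of any gene, and the members are described one by one below. By their brightest probe sets no cell had more than 4 members above the floor. Cell 20 had 4 by them, and Dab2 as well by 2 other probe sets.

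**Figure D1:**
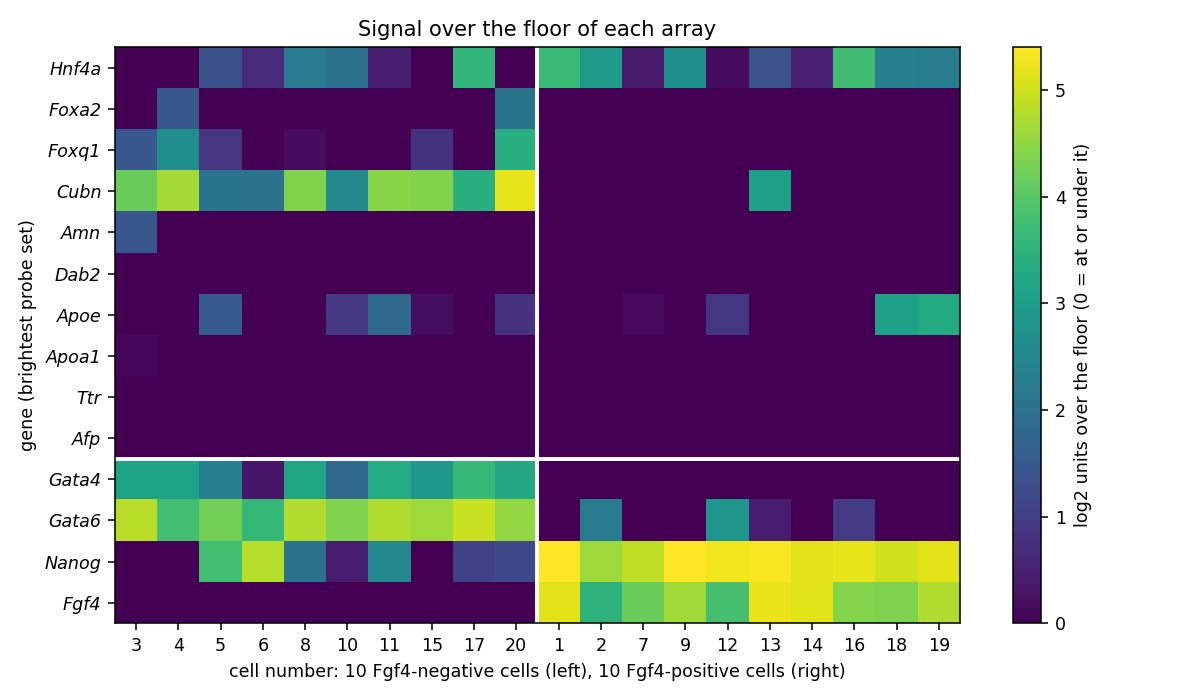
Signal of the 10 members and of 4 lineage genes over the floor of each array, in log2 units (colour), with 1 column per cell and 1 row per gene by its brightest probe set; 0 means at or under the floor. Cubn fills all 10 columns of the Fgf4-negative cells on the left and 1 column of the Fgf4-positive cells on the right, Hnf4a lies in both classes, and the rows of Dab2, Ttr and Afp are empty.

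Hnf4a, the nuclear receptor that drives plasma protein genes in visceral endoderm and liver, was by its brightest probe set present in cells of both classes and missing from 4 Fgf4-negative cells. By probe set 1427001_s_at its lowest, median and highest levels were 3.25, 7.60 and 10.49 in the Fgf4-negative cells and 7.02, 9.39 and 10.74 in the Fgf4-positive cells. The classes overlapped between 7.02 and 10.49, where all 6 Fgf4-negative cells with Hnf4a above the floor lay. All 10 Fgf4-positive cells were above the floor, while cells 3, 4, 15 and 20 were at the lowest possible value. The 6 other Fgf4-negative cells had 8.60 in cell 5, 7.68 in cell 6, 9.36 in cell 8, 9.33 in cell 10, 7.51 in cell 11 and 10.49 in cell 17. Among the Fgf4-positive cells, cells 7, 12 and 14 lay within 1 log2 unit of the floor, at 7.66, 7.02 and 7.27, and cells 1 and 16 were highest, at 10.71 and 10.74. Fgf4-negative cells 6 and 11 were likewise within 1 log2 unit of the floor. Hnf4a was above the floor in 10 cells with the floor at the 99th percentile and in 11 with it raised by 1 log2 unit.

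The class means were 6.60 ± 3.0 in Fgf4-negative cells and 9.05 ± 1.41 in Fgf4-positive cells (SD, n = 10 cells each). The gap of the means was smaller than the SD of the Fgf4-negative cells. As signal over the floor, with values under it set to 0, the means were 1.03 and 2.02 log2 units, a difference of -0.99. A difference of at least 1 in size on this scale was taken as a call, and Hnf4a lay just under it. It was called with the deposited intensities (-1.01), the pseudocount of the 10th percentile (-1.02) and the floor at the 90th percentile (-1.23), and by log2 values as read (-2.45). It was not called with the mean of its 4 probe sets (-0.27), the floor at the 99th percentile (-0.64) or without cell 16 (-0.80). In the 4 cells without Hnf4a the median deposited intensity was 30.06 in cell 3, 25.56 in cell 4, 28.45 in cell 15 and 26.11 in cell 20. That of cell 4 was the lowest of all cells apart from cell 19. An array median cannot show whether a single transcript was lost, which was not tested.

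The 4 Hnf4a probe sets fell into 2 kinds. Probe set 1427000_at, which shares its source sequence with 1427001_s_at in the annotation, was above the floor in 13 cells, 5 Fgf4-negative and 8 Fgf4-positive, and had r = 0.89 with it over the 20 cells. It was likewise at 3.25 to 3.43 in cells 3, 4, 15 and 20, and it disagreed with 1427001_s_at in cells 7, 11 and 14, where it read 6.39, 6.95 and 3.25. Probe sets 1450447_at and 1421983_s_at, both annotated to a RefSeq mRNA, to which the first pair is not, were above the floor in 0 cells. They were nearly even, at 6.28 ± 0.37 and 4.85 ± 0.45 (SD, n = 20 cells), and 1450447_at came closest to the floor in cells 9 and 19, at 6.98 and 7.0. Every statement on Hnf4a therefore rests on 1 pair of probe sets, and with the mean of all 4 it was above the floor in 8 cells.

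**Figure D2:**
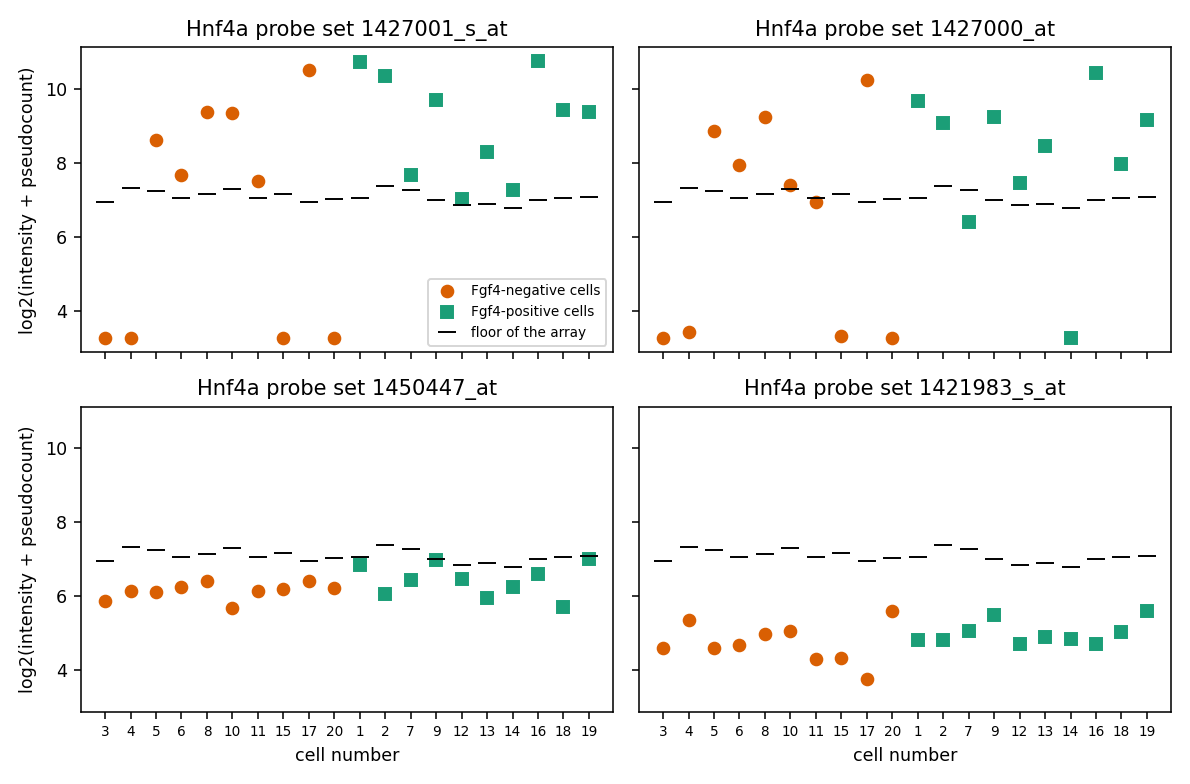
Levels of the 4 Hnf4a probe sets, log2(intensity + pseudocount), in the 10 Fgf4-negative cells (circles, left) and the 10 Fgf4-positive cells (squares, right), with the floor of each array as a dash. The upper pair of probe sets is at the bottom of the scale in cells 3, 4, 15 and 20, and the lower pair stays at or under the floor in all 20 cells.

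Foxa2, a forkhead factor of the visceral and definitive endoderm, was above the floor in cells 4 and 20, at 8.79 and 9.10, and between 4.18 and 5.39 in the other 18 cells. Both cells were Fgf4-negative and had no Hnf4a signal. Its lowest, median and highest levels were 4.18, 4.94 and 9.10 in the Fgf4-negative cells and 4.43, 4.89 and 5.39 in the Fgf4-positive cells. Only these 2 cells separated from an otherwise flat background, and the class difference over the floor was 0.35.

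Foxq1, another forkhead transcription factor gene, was seen in Fgf4-negative cells. By probe set 1438558_x_at its lowest, median and highest levels were 3.79, 7.63 and 10.41 in Fgf4-negative cells and 3.25, 4.13 and 4.78 in Fgf4-positive cells. It was above the floor in cells 3, 4, 5, 8, 15 and 20 and in 0 Fgf4-positive cells, although Fgf4-negative cells 6 and 17 (4.48 and 3.79) lay within the Fgf4-positive range. Above the floor in at least 5 Fgf4-negative and 0 Fgf4-positive cells were 0.198% of all genes. The other probe set, 1422735_at, was also above the floor in 6 Fgf4-negative and 0 Fgf4-positive cells, with cell 11 in place of cell 8, and had r = 0.97 with the first over 20 cells. Cell 10 was under the floor of its array by both, at 6.55 and 7.0.

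The mean signal of Foxq1 over the floor was 0.93 log2 units in Fgf4-negative cells and 0 in Fgf4-positive cells, under the call of 1 by this probe set, and 1.24 and 0 by the other. The call thus turned on the probe set, and with the floor at the 90th percentile the difference was 1.34, while with the 99th it was 0.34. With a floor raised by 1 log2 unit Foxq1 was above it in 3 cells. Cells 20 and 4 had the highest values by either probe set, 10.41 and 9.96 by the first and 11.12 and 10.37 by the other.

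The 4 cells without Hnf4a were among the 5 highest Foxq1 cells by either Foxq1 probe set. Of the 6 cells with Foxq1 above the floor, 4 lacked Hnf4a (cells 3, 4, 15 and 20) and 2 had it (cells 5 and 8), and both cells with Foxa2 were among the 4. By 1422735_at cell 11 (8.26) had Foxq1 together with Hnf4a, and cell 8 (3.25) had no Foxq1. No Fgf4-positive cell had Foxq1 above the floor. None lacked Hnf4a by its brightest probe set, while by 1427000_at cells 7 and 14 did, at 6.39 and 3.25. Over the 20 cells Hnf4a and Foxq1 had r = -0.51 on the signal over the floor, a value that 1.7% of 8578 candidate genes (each above the floor in 5 or more cells) reached or passed on that side with Hnf4a and 4.43% with Foxq1. Within the 10 Fgf4-negative cells r between them was -0.59. Over the 20 cells Hnf4a was nearly as negative with Cubn (-0.46) and Pdgfra (-0.45), and positive with Fgf4 (0.38) and Nanog (0.36). Foxq1 was more negative with Nanog (-0.60) and Pou5f1 (-0.57) than with Hnf4a. A value of this size was thus not particular to this pair. The points share the amplification and the array series, and the many values at 0 limit what r can show. Nanog, the epiblast factor gene, was under the floor in 3 of the 4 cells, at 6.82 in cell 3, 3.25 in cell 4 and 3.44 in cell 15, and was 8.19 in cell 20. It was above the floor in all 16 cells with Hnf4a.

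**Figure D3:**
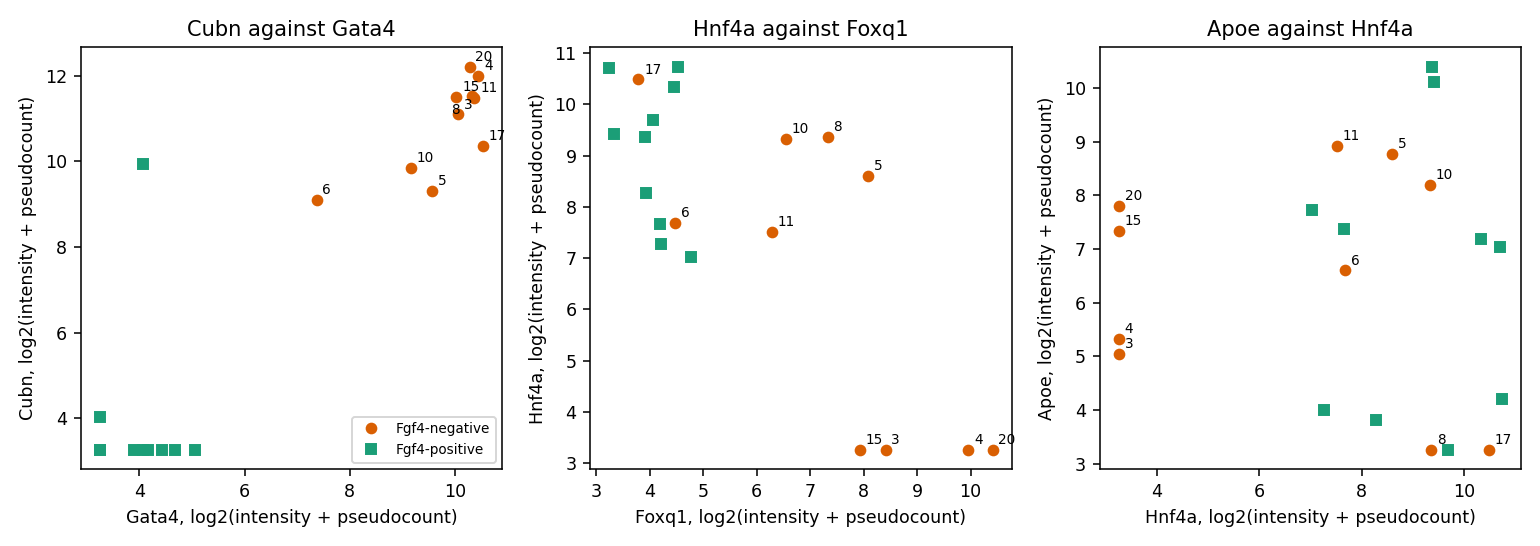
Levels of 3 pairs of genes in each cell, log2(intensity + pseudocount) on both axes, with Fgf4-negative cells as numbered circles and Fgf4-positive cells as squares. Cubn runs with Gata4, with 1 Fgf4-positive cell high in Cubn alone; Hnf4a is at the bottom of its scale in cells 3, 4, 15 and 20, which have Foxq1 at 7.93 or more; Apoe and Hnf4a show no common order.

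Cubn, which encodes the endocytic receptor cubilin, was the member that followed the classes. By probe set 1452270_s_at its lowest, median and highest levels were 9.10, 11.29 and 12.22 in the Fgf4-negative cells and 3.25, 3.25 and 9.94 in the Fgf4-positive cells. All 10 Fgf4-negative cells were high, and the Fgf4-positive cells were at or near the bottom of the scale apart from cell 13, at 9.94, which lay within the Fgf4-negative range. The mean over the floor was 3.73 log2 units in Fgf4-negative cells and 0.31 in Fgf4-positive cells, a difference of 3.43. Cubn was the 1 member of 10 called higher, where 1.21% of all genes were, and 0 of 10 were called lower, where 2.14% of all genes were. The call held under every alternative run, with differences of 1.91 to 6.85.

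The second Cubn probe set, 1426990_at, was dimmer in cells 5, 6 and 10, where it read 6.04, 6.32 and 3.25 and was under the floor. It was above the floor in 7 Fgf4-negative cells and in cell 13, where it read 7.52, and had r = 0.87 with the first over the 20 cells. The same 3 cells had the lowest Cubn by the first probe set in their class, with cell 6 at 9.10, cell 5 at 9.31 and cell 10 at 9.84. Cells 20 and 4 were highest by both, with 12.22 and 11.34 in cell 20. These 2 cells were also the highest in Foxq1 and the only ones with Foxa2.

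Within the Fgf4-negative cells, cells 5, 6 and 10 were the lowest in Cubn and also in Gata4, at 9.56, 7.37 and 9.16. Cell 6 had the lowest Gata4 (7.37) and the lowest Cubn of the class, and r between them was 0.76 over the 10 cells, with 0.68 for Pdgfra, 0.41 for Gata6, -0.21 for Sox17 and -0.60 for Nanog. With Foxq1 it was 0.59. Among the cells other than 5, 6 and 10, that with the highest Gata4, cell 17 (10.54), had the lowest Cubn (10.37). An r without cells 5, 6 and 10 was not computed, nor a background of r over all genes within the class. Cell 13, the Fgf4-positive cell with Cubn, had Gata4 at 4.07, under the floor, Gata6 just above its floor at 7.31 and Nanog at 12.24. By 1452270_s_at, Cubn without Gata4 was thus seen in 1 cell, and Gata4 without Cubn in 0. By 1426990_at, cells 5, 6 and 10 had Gata4 above the floor and Cubn under it.

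The partners of cubilin were mostly at background. Amn, whose product anchors cubilin in the membrane, was above the floor in cell 3, at 8.39, and between 3.25 and 5.40 in the other 19 cells. Dab2, the clathrin adaptor, was above the floor in 0 cells by its brightest probe set (5.57 ± 0.30, SD, n = 20 cells). By 2 of its 4 probe sets it was above the floor in cell 20, at 8.32 by 1420498_a_at and 7.50 by 1429693_at, and in none of the others. Lrp2, the gene of the megalin receptor that works with cubilin, was above the floor in cells 6 and 20, at 7.67 and 8.72. Cell 20 thus had Cubn, Lrp2 and Dab2, cell 3 had Cubn and Amn, and 0 cells had Cubn, Amn and Dab2 together.

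Apoe, which encodes a lipid-carrying apolipoprotein, was on in cells of both classes with no common order. Its lowest, median and highest levels were 3.25, 6.97 and 8.92 in Fgf4-negative cells and 3.25, 7.10 and 10.40 in Fgf4-positive cells. It was above the floor in cells 5, 10, 11, 15 and 20 of the first class and cells 7, 12, 18 and 19 of the second, and the ranges overlapped throughout. The means were 6.45 ± 2.13 in Fgf4-negative and 6.51 ± 2.59 in Fgf4-positive cells (SD, n = 10 cells each). The highest cells were 19 and 18, at 10.40 and 10.11, and cell 19 is the cell of low median intensity. The class difference over the floor was -0.21 with it and 0.07 without it. Apoe was measured by 1 probe set, and with the floor at the 99th percentile it was above it in 3 cells.

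The other 3 secreted products were at background. Ttr, the thyroid hormone and retinol carrier gene, was above the floor in 0 of 20 cells by all 4 probe sets, whose highest value was 6.35. Afp, the fetal counterpart of albumin, was above it in 0 cells by all 5 probe sets, whose highest value was 5.91. Apoa1, the main protein of high-density lipoprotein, was above the floor in cell 3 by its brightest probe set and in cell 19 by another. The brightest, 1455201_x_at, was even at 6.43 ± 0.35 (SD, n = 20 cells) just under the floors and reached 7.04 in cell 3, while 1419232_a_at reached 7.14 in cell 19 and was at 5.05 or less in the rest. As these 2 cells were not shared between the probe sets, neither value was borne out by the other. With the floor at the 90th percentile 1455201_x_at was above it in 10 cells, and with the 99th in 0.

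Genes most like each member over the 20 cells were taken among the same 8578 candidates, by r on the signal over the floor. For Cubn the highest was Gata4 (r = 0.90), followed by the collagen chaperone gene Serpinh1 (0.87), Mapre2 (0.86), Uap1 (0.86) and the FGF receptor gene Fgfr2 (0.85). For Foxq1 they were Zfp385c (0.90), Kdelr3 (0.90), a receptor that returns proteins to the endoplasmic reticulum, Basp1 (0.89), Arhgap24 (0.85) and Ssh1 (0.85), with Spearman's rho of 0.66, 0.91, 0.82, 0.56 and 0.81. Kdelr3 was above the floor in 7 Fgf4-negative and 0 Fgf4-positive cells and was highest in cells 20 and 4, at 11.34 and 11.26. For Hnf4a they were the ribonuclease inhibitor gene Rnh1 (0.76), Terf2ip (0.74), Fbxo6 (0.74), Plbd1 (0.70) and Wsb2 (0.69). For Apoe they were Atp11a (0.87), Cdc42ep1 (0.86), Zdbf2 (0.85), S1pr2 (0.82) and Scfd2 (0.79), with Spearman's rho of 0.58, 0.67, 0.70, 0.30 and 0.46, which were lower throughout. The points of each share the same 20 arrays, and no member was among the genes listed for another, as members were left out.

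**Figure D4:**
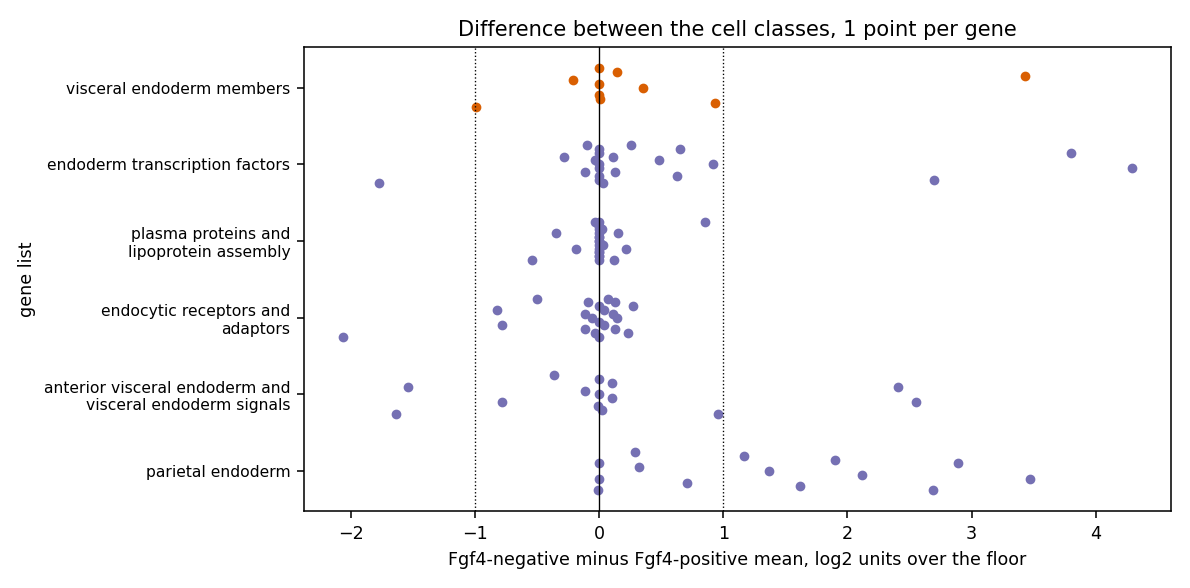
Difference between the mean signal over the floor of the 10 Fgf4-negative and the 10 Fgf4-positive cells, in log2 units, with 1 point per gene for the members (top) and 5 lists of related genes; dotted lines mark a difference of 1. Cubn is the member beyond the lines, at 3.43, and the parietal endoderm list has 8 of 14 genes beyond the right line.

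Lists of related genes were set beside the members. Of 22 measured (of 24 listed) endoderm transcription factor genes, 16 were above the floor in at least 1 cell, 3 were called higher in Fgf4-negative cells (Gata4, Gata6 and Sox17, by 2.70, 3.80 and 4.29) and 1 lower (Nr5a2, by -1.77), with a median difference of 0.02. Over all genes 1.21% were called higher and 2.14% lower, which is the background for the calls of each list. Foxa1 was above the floor in 3 cells, and Foxa3 and Hnf4g in 0. The bile acid receptor gene Nr1h4, named here after its values were seen, was above the floor in 7 Fgf4-negative and 0 Fgf4-positive cells, with its highest level of 9.41 in cell 10. Tcf7l2 was above the floor in all 20 cells and even, at 13.16 ± 0.10 in Fgf4-negative and 13.18 ± 0.08 in Fgf4-positive cells (SD, n = 10 cells each).

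Of 26 measured (of 28 listed) plasma protein and lipoprotein assembly genes, 16 (61.5%) were above the floor in 0 cells, against 39.4% of all genes, among them Apob, Rbp4, Alb and the fibrinogen genes Fga, Fgb and Fgg. Higher and lower calls numbered 0, and the median difference was 0, as over all genes. The largest positive difference was that of Pla2g12b, a gene of lipoprotein secretion, which was above the floor in Fgf4-negative cells 3, 4, 5, 17 and 20 and in 0 Fgf4-positive cells, with a mean signal of 0.85 and 0 over the floor. The largest negative one was that of Apoa4, at -0.54. Apoc1, Pltp, Vtn and Apoa4 were above the floor in all 20 cells and differed by 0.15, 0.22, -0.19 and -0.54. Ttr and Afp, which were also above the floor in 0 cells, are not counted in this list.

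Of 21 measured (of 24 listed) endocytic genes, 11 were above the floor in at least 10 cells, as were 38.5% of all genes. The coat and adaptor genes Clta, Cltc, Ap2m1, Ap2s1 and Dnm2 and the receptor chaperone gene Lrpap1 were above it in all 20. Clta and Lrpap1 differed by 0.07 and 0.27. The 1 call was for Tfrc, the transferrin receptor gene, with a mean signal over the floor of 2.80 in Fgf4-negative and 4.86 in Fgf4-positive cells, a difference of -2.06. The 6 genes above the floor in every cell were named for that, and other genes of the list were rarer. Scarb1, Myo6 and Gipc1 were above it in 8 cells, Ap2a1 and Numb in 2, Cltb in 1, and Lrp1, Vldlr and Lrp8 in 0. Cubn was above it in 11 cells, Lrp2 in 2 and Amn in 1.

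Of 14 anterior visceral endoderm and signal genes, 2 were called higher in Fgf4-negative cells, Dkk1 (a WNT antagonist, by 2.55) and Amot (by 2.41), and 2 lower, Hesx1 and Sfrp1. Dkk1 was above the floor in 8 Fgf4-negative cells and 1 Fgf4-positive cell. Of these 14 genes, 12 were above the floor in at least 1 cell and 7 in at least 10, against 60.6% and 38.5% of all genes. Tdgf1 and Pcsk6 were above it in all 20 cells. Cer1, Lefty1, Sfrp5 and Bmp2 were above it in 1 cell each, and Ihh and Nodal in 0. Of 14 genes linked to parietal endoderm, the other derivative of the primitive endoderm, 8 were called higher in Fgf4-negative cells and 0 lower, with a median difference of 1.27, against 0.01 for the 10 members and 0 for all genes, of which 1.21% were called higher and 2.14% lower. Lama1 and Col4a2 differed most, by 3.47 and 2.89. Lama1 and Col4a1 of this list also served as primitive endoderm markers, and the list was chosen with the class of its basement membrane genes known, so its count is no independent evidence.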

How the data were processed

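The deposited table held linear intensity values, from 1 to 26616, of 45101 probe sets in 20 arrays, 1 per cell. Per the labels' protocols, the authors amplified the cDNA of single cells by PCR and labelled cRNA by the Affymetrix one-cycle protocol. The sources used here do not name the summary software, the background correction or any normalization. Of the probe sets, 64 array controls were left out, and genes were named from GEO's platform annotation where it gave 1 symbol. Where a gene had several probe sets, that of the highest mean over the cells stood for it.

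The 2%-trimmed means of the arrays ran from 181.3 to 219.8, more than 5% apart, so arrays were quantile normalized. The pseudocount was set from the 25th percentile of each array, of which the median was taken. For arrays, their number and the signal over the floor limit the precision. Differences were taken between class means of the log2 signal over the floor, and likeness as Pearson's r (Python 3.11.15, numpy 2.4.6, pandas 2.3.3). These steps were run on simulated data modelled on genes above the floor in most cells. Most members are not such genes, so the run does not show how the steps perform on them. No p-value was computed.

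The members, lists and classes were chosen with earlier results of these data known. The rule for named genes took all members, the 2 genes above the floor in most cells and the 2 of largest class difference of each list, the 5 genes most like each member above the floor in 5 to 19 cells, and reference genes of the lineages. Other list genes serve as examples chosen after their values were seen. Alternatives covered normalization, pseudocount, floor, probe set, class rule, measure and the leaving out of cells 16 and 19. Pairs of arrays that shared most values numbered 0.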

Additional observations from a re-analysis of the deposited data

How the results depend on the processing

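The number of members above the floor in at least 1 cell was 6 to 8 under all alternatives run. The number above it in at least 10 cells was 2, except for 4 with the floor at the 90th percentile and 1 with the mean of all probe sets. Cubn was the 1 member called different between the classes. There were 2 with the deposited intensities, the pseudocount of the 10th percentile, the mean of all probe sets and the second brightest probe set (the last chosen after seeing the data), and 3 with the floor at the 90th percentile and with log2 values as read. The added members were Hnf4a and Foxq1, which lay just under the threshold. Of the list genes, 13 were called higher and 4 lower. These counts were 8 and 1 with the mean of all probe sets and 22 and 9 with log2 values as read, which include values under the floor. Of the 20 genes named as most like a member, 8 were shared by Spearman's rho, and 16 with the deposited intensities and without cell 19. Of 90 counts of cells above the floor for single members, 78 stayed within 1.5 times or were 0 in both runs, as those of Ttr and Afp always were. The 12 that moved included those of Hnf4a, Foxq1, Apoe and Apoa1 with the floor at the 99th percentile. The class difference of Cubn, the 1 called member, kept its sign in every run. That of Apoe, which was not called, went from -0.21 to 0.07 without cell 19. No paired analysis was possible because the labels form 1 group. The number of arrays and the floor limit what can be seen of dim genes.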
